A study of Mus musculus with 7 samples.

Results

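The keratin (Krt) and keratin-associated protein (Krtap) genes were examined in secondary follicle-enclosed oocytes of mice with and without Mfn1, the gene for the mitochondrial fusion protein mitofusin 1. The members were picked by their symbols, Krt or Krtap followed by a number, and 36 of the 22877 genes in the deposited table matched, 32 Krt and 4 Krtap genes. The family was selected on the same genotype means that are described here, since Krtap4-13 was known to be among the largest increases and Krt12 among the largest decreases. The values below are therefore a description, and none of them was tested. GENCODE M21 annotates 112 genes with such symbols, and the other 76, of which 54 are Krtap genes, were not analysed here.

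RNA was sequenced from 4 WT and 3 Mfn1-/- libraries, each made from 5 oocytes pooled from 8-week-old females. Mfn1-/- oocytes came from Mfn1 fl/fl mice with a Zp3-Cre transgene, whose promoter is active in growing oocytes and not in granulosa cells, and WT oocytes came from littermates. The study describes 3 samples per genotype, whereas the labels hold 4 WT samples. The oocytes were freed from their follicles with enzymes, and their poly(A) RNA was amplified as cDNA without a record of strand.

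For each gene the table gives the authors' mean of normalized counts for each genotype. With 1 mean per genotype there is no spread between libraries, no depth and no standard error, and a mean does not show whether 1 library or all of them carried the reads. The lowest mean in the table is 0.01 in either genotype, and such a gene is called listed at the lowest mean. Differences are given as log2 of the Mfn1-/- mean over the WT mean after 0.1 was added to each, which understates the difference of genes with low means. In bulk RNA, fewer cells that express a gene and less RNA per cell cannot be told apart. The targeted gene Mfn1 (chr3:32529465-32579239, GRCm38) averaged 0.0577 in Mfn1-/- and 0.616 in WT oocytes.

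Keratins are the intermediate filament proteins of epithelial cells. A filament is built from pairs of an acidic type I and a basic type II keratin, and in the mouse nearly all type I genes lie in a cluster on chromosome 11 and nearly all type II genes in a cluster on chromosome 15. Simple epithelia use Krt8 with Krt18, stratified epithelia use pairs such as Krt5 with Krt14 and Krt1 with Krt10, and hair and its root sheath use keratins of their own. Keratin-associated proteins form the matrix around the hair keratin filaments, to which many of them are linked through their cysteines. Keratin filaments have also been described in mammalian oocytes and early embryos, with Krt8 and Krt18 as the known pair.

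In these oocytes most members had low means. In 20 of the 36 members (55.6%) the mean over the 7 libraries was under 0.1, against 39.5% of all genes, and only Krt12, Krt10 and Krt84 had a mean of at least 1. The oocyte genes Zp3 and Gdf9, for zona pellucida glycoprotein 3 and growth differentiation factor 9, had means of 708 and 533 in Mfn1-/- and of 609 and 461 in WT oocytes. The summed mean of the members was 25.8 in Mfn1-/- and 31.5 in WT oocytes. Without Krt12 the sums were 24.0 and 16.2, so that this gene alone set which genotype had the higher sum.

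More than a 2-fold difference was found for 6 members. Krtap4-13, Krt79, Krt78, Krt8 and Krt36 were higher in Mfn1-/- oocytes (5 of 36), and Krt12 was lower (1 of 36). Over all genes, 4.87% were over 2-fold higher and 2.75% over 2-fold lower by the same measure. With the median log2 difference of genes with a mean of at least 1 (0.16) subtracted, those shares were 3.58% and 4.0%, and the members' counts stayed at 5 and 1. Because the same contrast chose the family, nothing is read from these shares. The median log2 difference was 0.12 over the 36 members and 0.04 over all genes, and both were below 0 once that median was subtracted (-0.04 and -0.12). The member just inside the 2-fold limit was Krt36, with a log2 difference of 1.38, and the members just outside were Krt17 at 0.82 and Krtap5-5 at 0.71. On the lower side Krt12 stood alone at -2.97, and the next member was Krt72 at -0.55.

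**Figure D1:**
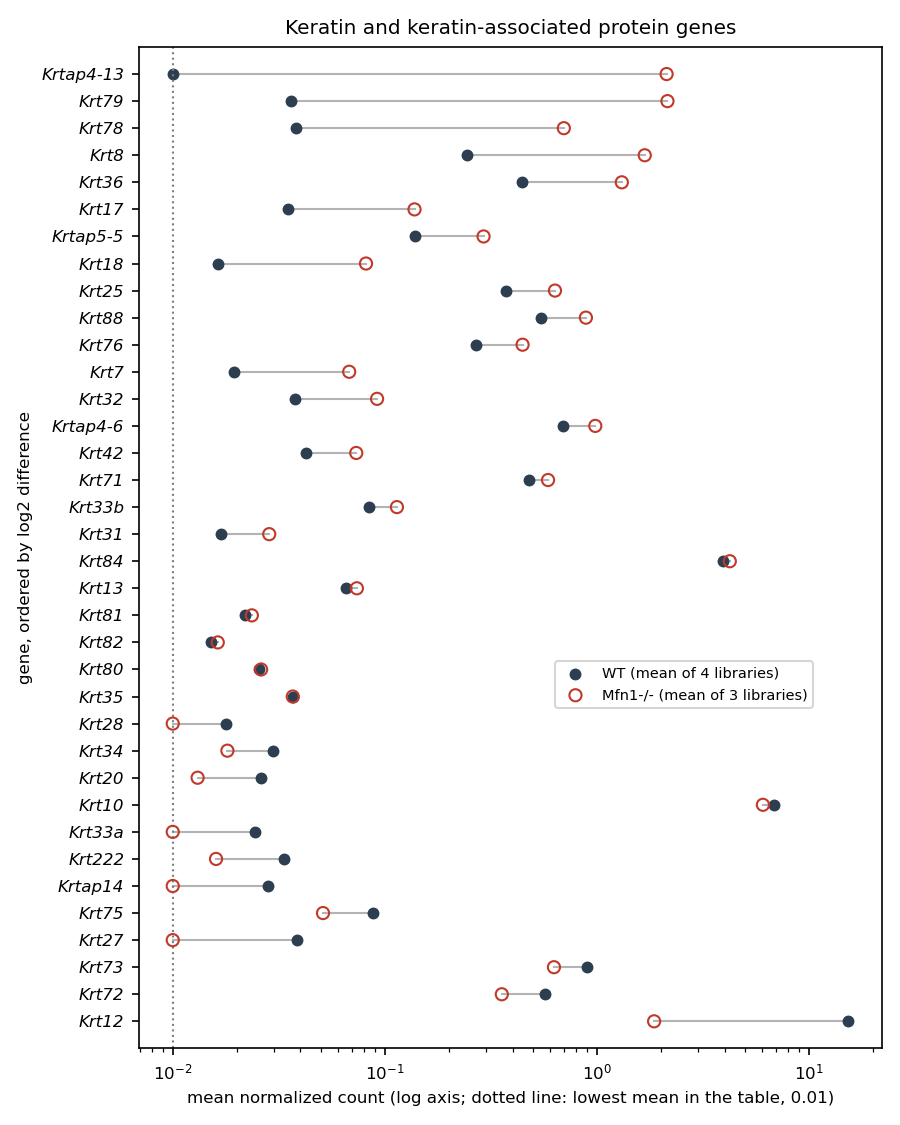
Mean normalized count of each of the 36 Krt and Krtap genes in WT (filled) and Mfn1-/- oocytes (open) on a log axis, ordered by the log2 difference, with the lowest mean of the table as a dotted line. The longest lines belong to Krtap4-13 (0.01 in WT, 2.13 in Mfn1-/-), Krt79 (0.0362 and 2.15) and Krt78 (0.038 and 0.698) at the top, and Krt12 (15.3 and 1.86) is at the bottom.

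Krt12, the type I keratin of the corneal epithelium, was the member with the highest WT mean. Its mean was 15.3 in WT and 1.86 in Mfn1-/- oocytes, 8.23 times higher in WT. In WT oocytes it ranked at place 1319 of 22877 genes (percentile 94.2), and in Mfn1-/- oocytes at percentile 78.8. Its usual partner, Krt5, was not analysed here. The gene lies on the minus strand of chromosome 11 (chr11:99415666-99422259). The nearest keratin genes of the table, on the same strand, are Krt10 and Krt20, a keratin of intestinal and urothelial cells. Krt10, which epidermal cells express once they leave the basal layer, averaged 6.82 in WT and 6.06 in Mfn1-/- oocytes (log2 difference -0.17). Krt20 had means of 0.0262 and 0.0131. Krt12 thus went from 2.24 times the mean of Krt10 in WT to 0.307 times in Mfn1-/- oocytes, while Krt10 itself differed by 1.13 times.

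The antisense gene A830036E02Rik (chr11:99416956-99425497, plus strand) overlaps the exons of Krt12 over 1007 bases, and 35.6% of the 75-base stretches of Krt12 also occur in it. Its mean was 0.407 in WT and 0.0577 in Mfn1-/- oocytes, 7.05 times higher in WT. The ratio of the Krt12 mean to that of A830036E02Rik was 37.6 in WT and 32.2 in Mfn1-/- oocytes. With the lowest mean of 0.01 taken from each value, a choice made after seeing the data, the ratios were 38.5 and 38.8. The libraries do not record strand, so reads from the shared exons cannot be told apart by themselves. The mate of such a read may lie outside these exons. Of the 36 members, 8 overlap exons of a gene on the opposite strand, and the overlap next in size after that of Krt12 was 263 bases.

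Krtap4-13 encodes a hair matrix protein of the high-cysteine kind. Its mean was 2.13 in Mfn1-/- oocytes, and in WT oocytes it was listed at the lowest mean. No fold is given, because the log2 difference of 4.34 depends on the value added and is no bound. It was the only member at the lowest mean in WT. The gene has no intron in GENCODE M21 and lies at chr11:99809078-99809892 on the minus strand, among other keratin-associated protein genes. Of its 165 codons 38.2% encode cysteine, against a median of 1.77% over the 32 Krt genes and 37.9% in Krtap4-6. The stretch below is coding bases 130 to 204, with the cysteine codons (10 of 25) in capitals. It is shown because it occurs letter for letter in the genes Gm11569 and Gm11554 as well.
Krtap4-13: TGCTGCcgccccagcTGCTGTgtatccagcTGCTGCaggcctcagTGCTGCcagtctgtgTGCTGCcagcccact

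By itself, a read of 75 bases from this stretch has no unique origin among these genes, though its mate may lie outside the stretch. Over the whole transcript, 70.3% of the 75-base stretches of Krtap4-13 occur in Gm11569 and 70.9% in Gm11554. Gm11569 (chr11:99798064-99798932) had a mean of 0.0733 in Mfn1-/- oocytes and was also listed at the lowest mean in WT, and Gm11554 was not analysed here. How the authors' counting treated reads with several origins is not given in the sources used here, so the value of Krtap4-13 is uncertain in its share of such reads. The other Krtap members differed less. Krtap4-6 averaged 0.982 in Mfn1-/- and 0.688 in WT, and 9.12% of its 75-base stretches occur in other genes. Krtap5-5 had means of 0.292 and 0.139. Krtap14 was listed at the lowest mean in Mfn1-/- and had a mean of 0.0282 in WT.

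The other members over 2-fold higher in Mfn1-/- oocytes were mostly neighbours. Krt79, Krt78 and Krt8 follow each other as protein-coding genes on the minus strand of chromosome 15, at chr15:101929332-101940324, chr15:101946001-101954287 and chr15:101996698-102004482. Krt79, a type II keratin of the hair follicle canal and sebaceous duct, averaged 2.15 in Mfn1-/- and 0.0362 in WT oocytes (59.4 times higher). Krt78, a type II keratin of stratified epithelia, had means of 0.698 and 0.038 (18.4 times higher). Krt8, the type II keratin of simple epithelia, had means of 1.68 and 0.245 (6.86 times higher). The 3 genes differed in WT level, with Krt8 above the others, and were all higher in Mfn1-/- oocytes. Neither Krt79 nor Krt78 shares a 75-base stretch with another annotated transcript.

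The nearest genes of the table on either side did not reach a 2-fold difference with 0.1 added to each mean, but for Krt18 this depended on the value added. Beyond Krt8 lies Krt18 (chr15:102028180-102032027, plus strand), the type I partner of Krt8 and the only type I gene of this cluster. It averaged 0.0815 in Mfn1-/- and 0.0163 in WT oocytes (5.0 times higher), with a log2 difference of 0.64 with 0.1 added, 1.8 with 0.01 and 2.32 with nothing added. Eif4b, for a translation initiation factor, follows with means of 2.19 and 2.27. On the other side Krt76, a type II keratin of the oral epithelium, had means of 0.446 and 0.27 (log2 difference 0.56). The difference in log2 thus went from 0.56 at Krt76 to 4.05, 2.53 and 2.37 at the 3 genes, and to 0.64 at Krt18 and -0.05 at Eif4b. Over the 15 members on chromosome 15 the median log2 difference was 0.25, and over the 19 on chromosome 11 it was 0.07.

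**Figure D2:**
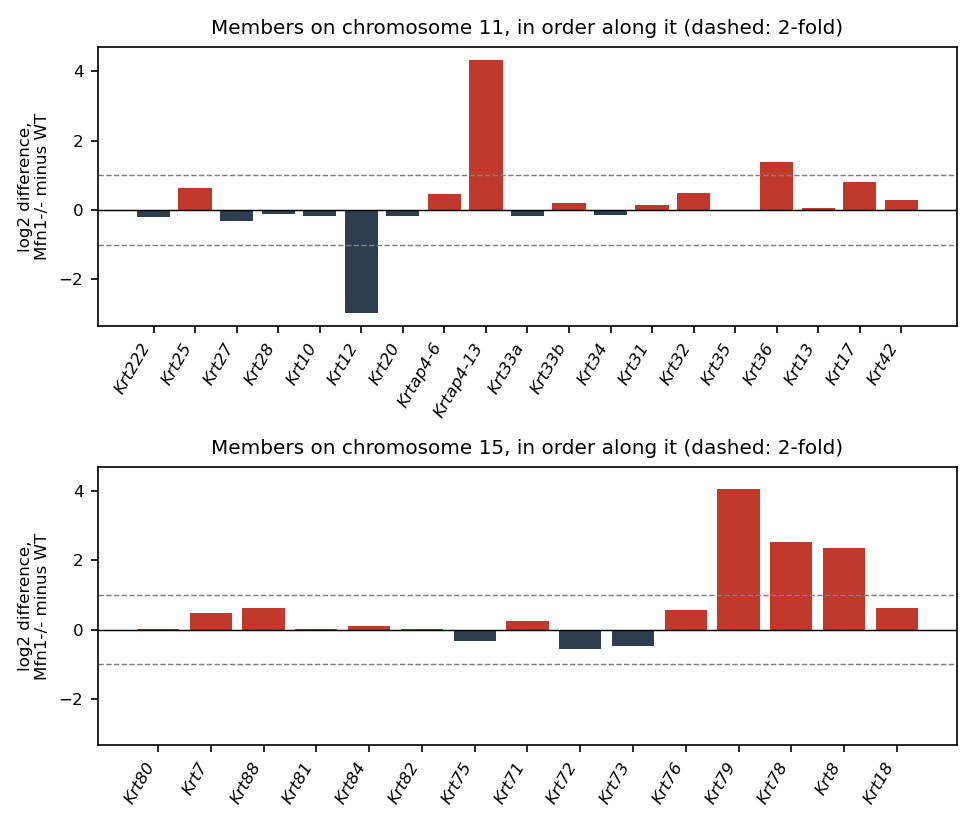
Log2 difference (Mfn1-/- minus WT, with 0.1 added to each mean) of the members on chromosome 11 (19 genes) and chromosome 15 (15 genes), in their order along the chromosome but not to scale, with 2-fold as dashed lines. Krt79, Krt78 and Krt8 stand side by side on chromosome 15 at 4.05, 2.53 and 2.37, whereas Krt12 (-2.97), Krtap4-13 (4.34) and Krt36 (1.38) on chromosome 11 have members under 2-fold on either side.

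Krt8 has a processed pseudogene, Krt8-ps, on chromosome 7 (chr7:23357125-23358069), and its row averaged 2.38 in Mfn1-/- and 0.384 in WT oocytes (6.2 times higher). Both rows were thus higher in Mfn1-/- oocytes by similar factors, and the mean of Krt8-ps was 1.42 times that of Krt8 in Mfn1-/- and 1.57 times in WT oocytes. The pseudogene transcript aligns with Krt8 over 941 bases without a gap and differs from it at 13 of them. Of the 75-base stretches of Krt8, 22% occur in Krt8-ps. Coding bases 802 to 876 of Krt8 are the first stretch of this length with 4 differences from the pseudogene, the most found in any. They are printed with the 4 differing bases in capitals. Taken alone, a read from the aligned part can be told apart only where it covers such a base. Its mate may cover such a base too, or lie in the rest of Krt8, which has no counterpart in the annotated pseudogene.
Krt8: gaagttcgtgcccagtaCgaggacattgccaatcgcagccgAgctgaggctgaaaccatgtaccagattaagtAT
Krt8-ps: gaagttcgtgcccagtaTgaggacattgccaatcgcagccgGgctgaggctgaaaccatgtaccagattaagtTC

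Krt36, a type I hair keratin that is also found in the tongue and nail, averaged 1.31 in Mfn1-/- and 0.443 in WT oocytes (2.96 times higher) and shares no 75-base stretch with another gene. It lies at chr11:100102007-100105626, and its keratin neighbours Krt35 and Krt13 had log2 differences of 0.00 and 0.07.

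Of the partner sets looked up, Krt8 with Krt18 was the only one with a gene of each type in the table. Krt8 had 20.6 times the mean of Krt18 in Mfn1-/- and 15.0 times in WT oocytes, and with the lowest mean of 0.01 taken from each value, a choice made after seeing the data, the ratios were 23.4 and 37.3. The type II gene was thus above its partner in both genotypes, and which genotype had the larger ratio depended on that choice, because the WT mean of Krt18 is close to the lowest mean. The rows Krt1, Krt4, Krt5, Krt6a, Krt6b, Krt14, Krt16 and Krt19 were not analysed here. Of their partners, Krt17, a type I keratin of hair follicles and wounded epidermis, averaged 0.138 in Mfn1-/- and 0.0351 in WT oocytes. Krt7, a type II keratin of ducts and glands, had 0.0679 and 0.0194. Krt13, of the oral and oesophageal lining, had 0.0738 and 0.0656. These low values add little, since a value of this size is close to the lowest mean.

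Grouped by where they are usually expressed, the keratins had no common direction. Beside the shares of all genes, 4.87% over 2-fold higher and 2.75% lower, nothing is read from counts in groups this small. Of the simple epithelial keratins 4 of 6 were in the table, with a median log2 difference of 0.57, and Krt8 was the only one past 2-fold. The stratified epithelial keratins (9 of 21) had a median of 0.07 and held Krt79, Krt78 and Krt12. The inner root sheath keratins (6 of 8) had a median of -0.22 and none past 2-fold. Among these, Krt73 averaged 0.627 in Mfn1-/- and 0.897 in WT oocytes, and Krt25 had 0.634 and 0.371. The hair keratins (10 of 16) had a median of 0.07 with Krt36 past 2-fold. Krt84, a type II hair keratin also found in the tongue, was the hair keratin with the highest level, with means of 4.23 and 3.91. Krt88, a keratin gene outside these groups, had means of 0.887 and 0.542.

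**Figure D3:**
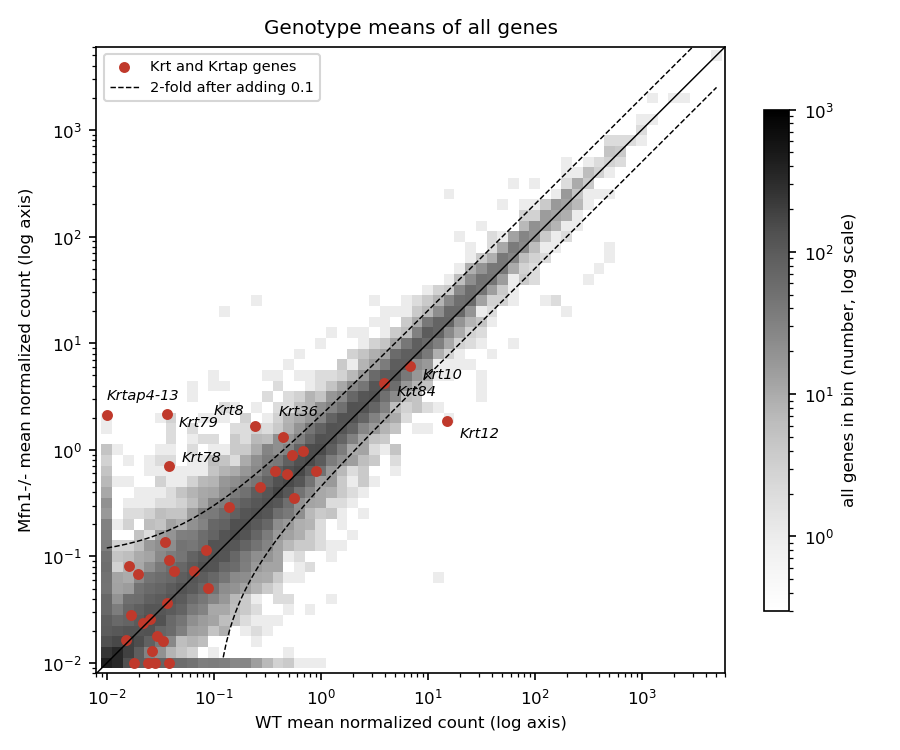
WT mean (x) against Mfn1-/- mean (y) in normalized counts on log axes, with the number of all 22877 genes per bin in grey, the 36 members as red points, equal means as a solid line and 2-fold after addition of 0.1 as dashed lines. Krt10 and Krt84 lie near the solid line, 5 members lie above the upper dashed line, and Krt12 alone lies below the lower one.

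At the low end, 4 members were listed at the lowest mean in Mfn1-/- oocytes, namely Krt27 (WT mean 0.0385), Krt28 (0.0178), Krt33a (0.0244) and Krtap14 (0.0282). With Krtap4-13 these were 13.9% of the members, against 8.13% of all genes at the lowest mean in 1 genotype. None of the 22877 genes was at the lowest mean in both. The WT values of these 4 genes are small, and each log2 difference lies between -0.33 and -0.1.

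The size of such small values depended on gene length. Among the 852 genes listed at the lowest mean in Mfn1-/- oocytes for which exon length was known, the median WT mean went from 0.117 in the shortest sixth to 0.0121 in the longest. Multiplied by the exon length in kb, the part of the WT mean above 0.01 varied less, between 0.0133 and 0.0493, with a median of 0.0272 over all of them. It was still lower in the longest sixth (0.0133) than in the shortest (0.0493). By that measure the deposited means behave only roughly like counts per transcript length with 0.01 added. Levels were compared between genes on that footing, although the normalization is not stated. For Krt27 the same product was 0.0442 in WT oocytes, which is within the range of the 6 medians. It was 28.3 for Krt12 in WT, where the median above was 0.0272. In Mfn1-/- oocytes it was 10.2 for Krt79 and 1.73 for Krtap4-13, and the median was 0.044 for genes listed at the lowest mean in WT. Krt79 was not itself listed there. These genes were named for their large differences, so nothing is read from their distance to the medians.

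**Figure D4:**
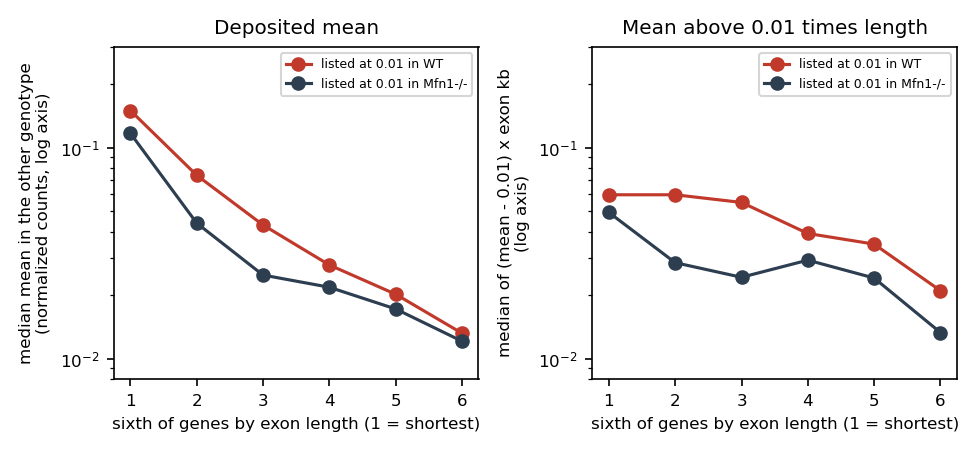
Genes listed at the lowest mean in 1 genotype, in sixths by exon length (1 is the shortest), with the median mean in the other genotype on the left and the median of the mean above 0.01 times exon length in kb on the right, both on log axes. The left curves fall from 0.15 and 0.117 to 0.0132 and 0.0121, and the right ones span a smaller range, from 0.0598 and 0.0493 to 0.021 and 0.0133.

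The promoters of the members were searched for a short sequence that their choice did not use. The 50 bases before the transcription start were available from RefSeq (GRCm38.p6) for 29 members. The letters TATAAA, the core of the TATA box to which the general transcription machinery binds, were searched there on the gene's strand. They occurred in 16 of the 30 windows of these members and in 2.63% of the 32851 windows of all genes. Counted on both strands the number of member windows was again 16, and the share of all windows was 3.5%. On chromosome 11 the letters were present in 12 of 15 members, and on chromosome 15 in 3 of 12. The windows of 7 members are printed with TATAAA in capitals. They are those of the genes past 2-fold except Krt8, beside Krt10, which lies near Krt12, and Krtap4-6, another Krtap gene of chromosome 11. Each ends at the base before the RefSeq start and is read along the minus strand.
Krt12: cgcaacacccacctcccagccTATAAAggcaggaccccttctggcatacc
Krt10: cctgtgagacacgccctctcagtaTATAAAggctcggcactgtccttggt
Krtap4-13: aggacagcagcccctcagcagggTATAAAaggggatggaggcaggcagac
Krtap4-6: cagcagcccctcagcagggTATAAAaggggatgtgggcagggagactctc
Krt36: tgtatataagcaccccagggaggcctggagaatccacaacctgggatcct
Krt79: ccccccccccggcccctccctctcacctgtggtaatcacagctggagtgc
Krt78: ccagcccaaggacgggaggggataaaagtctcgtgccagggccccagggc

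These windows are chr11:99422260-99422309 for Krt12, chr11:99389365-99389414 for Krt10, chr11:99809897-99809946 for Krtap4-13 and chr11:99665961-99666010 for Krtap4-6. Those of the others are chr11:100105627-100105676 for Krt36, chr15:101940325-101940374 for Krt79 and chr15:101954288-101954337 for Krt78. The letters were present in Krt12, which was lower in Mfn1-/- oocytes, in Krtap4-13, which was higher, and in Krt10, which was under 2-fold, and they were absent from the windows of Krt79, Krt78, Krt8 and Krt36. The presence of these exact letters thus did not divide the members by direction. Variants of the TATA box were not searched, so absence of TATAAA does not mean that a promoter has no TATA box. The Krt8 window (chr15:102004343-102004392) lies inside the GENCODE gene, so it is not upstream of the start annotated there. A match is a description of these letters and not evidence of a site in use.

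Genes that act with or beside keratins were described by lists. Over all genes 4.87% were over 2-fold higher and 2.75% over 2-fold lower. Nothing is read from counts past 2-fold in lists this small, here or for the cell type markers below. Of 21 desmosome and linker genes, which tie keratin filaments to the cell membrane, 13 were in the table, with a median log2 difference of 0.05 and none past 2-fold. Of 12 genes of the cornified envelope, the outer shell of skin cells, 5 were in the table, all with a mean under 0.1 and none past 2-fold. Of 15 regulators of keratin genes 13 were in the table, with a median of 0.22, 1 past 2-fold higher and 1 past 2-fold lower. Hoxc13, a hair keratin activator, averaged 0.138 in Mfn1-/- and 0.0135 in WT oocytes (log2 difference 1.07). Its WT mean is close to the lowest mean, so this difference depends on the value added. Gata3, a factor of the hair root sheath among other tissues, had means of 0.303 and 0.861 (-1.25), and Tfap2c, an epithelial and germ cell factor, had 1.7 and 0.994 (0.72). Of the other intermediate filament genes, 10 of 16 were in the table with a median of 0.31. Nes, for nestin, had means of 0.828 and 0.224 (1.52), and Prph, for peripherin, had 0.536 and 0.152 (1.34). Nefh, for the heavy neurofilament chain, had 5.68 and 3.05 (0.88), Ina, for alpha-internexin, had 2.63 and 2.14 (0.29), and the lamin gene Lmna had 0.864 and 1.25 (-0.49).

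Markers of the cell types that such a sample could hold were at these levels. All 14 oocyte markers were in the table, none of them past 2-fold, and their means summed to 4490 in Mfn1-/- and 4030 in WT oocytes. Granulosa cell markers (12 of 14) summed to 2.42 and 1.79, of which Inha gave 1.87 and 0.954, while Fshr had 0.016 and 0.0171 and Amh 0.0349 and 0.02. Inha alone made the Mfn1-/- sum the higher one. Over the 12 markers the median log2 difference was -0.06, with 4 above 0 and 8 below. Hsd17b1 (0.0412 and 0.152) and Cyp19a1 (0.0846 and 0.193) were among those lower in Mfn1-/- oocytes. Theca and stroma markers (5 of 8) summed to 0.21 in each genotype. Ovarian surface epithelium, a keratin-expressing tissue, was represented by 4 of 8 markers with sums of 1.01 and 0.992. Of these Upk3b was higher in Mfn1-/- oocytes (0.844 and 0.302) and Aldh1a2 lower (0.144 and 0.668). Skin keratinocyte markers other than keratins (4 of 10, each also in another of these lists) summed to 0.311 and 0.229, with none past 2-fold. The part of other cell types in the keratin differences was not tested.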

How the data were processed

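Per the labels and the paper's methods, RNA of 4 WT and 3 Mfn1-/- oocyte pools was sequenced as 75-base pairs of reads from Smart-Seq2 cDNA. Trimming with Cutadapt, quality filtering, alignment to GRCm38/mm10 with STAR and testing with DESeq2 were done by the authors. The annotation version and the normalization are not given in the sources used here. The deposited signal values are the authors' means of normalized counts, 1 for each genotype, beside a sum over libraries. That sum matched the total rebuilt from the means of 3 Mfn1-/- and 4 WT libraries to within 1% for 100% of genes. Its other columns, the authors' own p-value, FDR, ratio and signed fold change for Mfn1-/- against WT, were not used. The number of unused per-sample columns was 0. Depth per sample is unknown.

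From the means, log2 differences were computed with 0.1 added, and a difference over 2-fold was counted. No test was possible with 1 mean per genotype. Positions, exon lengths and transcripts were taken from GENCODE M21 (GRCm38) and promoters from RefSeq. Stretches of 75 bases were compared between transcripts found with blastn, as single reads without their mates. The members and gene lists were chosen with earlier results of these data known. Named are members past 2-fold with a mean of at least 0.1 over the 7 libraries, the 10 members with the highest mean, filament partners, members beside the 2-fold limit, the neighbours of Krtap4-13 and Krt12, and members at the lowest mean. Krt8-ps, the genes around Krt79, other genes with shared sequence and Krtap genes under 2-fold were named after their values were seen. So were members that passed 2-fold only with another value added. The code was run on the WT means with known changes set without noise into genes with a mean of at least 1. That run checks the arithmetic alone, and not differences at low means. Python 3.11.15, numpy 2.4.6, pandas 2.3.3 and matplotlib 3.10.9 were used.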

Additional observations from a re-analysis of the deposited data

How the results depend on the processing

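With 0.01 added to each mean in place of 0.1, 10 members were over 2-fold higher, 2 were lower and the median log2 difference was 0.22. With 1 added, 3 were higher and the median was 0.03. With nothing added, 10 were higher, 5 were lower and the median was 0.23. Over all genes the shares over 2-fold higher and lower were 10.5% and 6.63% with 0.01, 0.914% and 0.481% with 1, and 12.7% and 8.31% with nothing added. Krt36 (0.68) and Krt78 (0.71) were under 2-fold with 1 added. Krt17, Krt18, Krt7, Krt32 and Krtap5-5 passed it with 0.01 or nothing added. On the lower side Krt27 passed it with 0.01 added (-1.28), and with nothing added Krt27, Krt33a, Krtap14 and Krt222 did. With the median of expressed genes subtracted, the members' median was -0.04, and the differences of Krt13 (-0.09) and Krt84 (-0.05) changed sign. Among the members with a mean of at least 0.1 the median was 0.59, against 0.11 over all such genes. Krtap4-13, Krt79 and Krt78 passed this limit only through their Mfn1-/- means, so nothing is read from the higher median. With a mean of at least 1, 0 of the 3 members left were higher and 1 was lower. Of all such genes 5.44% were higher and 3.24% lower. The median over these 3 members was -0.17, against 0.16 over all such genes, and with 3 members nothing is read from this. The Krt genes alone had a median of 0.09. Past a 4-fold difference, 4 members were higher and 1 lower, against 0.704% and 0.315% of all genes. An alternative chosen after seeing the data left out Krt8 and Krt12, whose sequence is shared with Krt8-ps and A830036E02Rik. Krt12 was the only lower member, so 0 lower followed from leaving it out, and 4 members were higher. Of all genes 4.87% were higher and 2.74% lower. These 4 still held Krtap4-13, with 70.9% of its 75-base stretches in other genes, so they are not free of shared sequence. The small means limit the lower members most, since the value added decides their difference. No paired analysis was possible because the table holds 1 mean per genotype, and leaving out each library in turn was not run for the same reason.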

Other observations

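Several genes carry a Krt symbol without being keratins and were outside the family described above. Krtcap3, for a membrane protein named after keratinocytes, averaged 24.8 in Mfn1-/- and 19.0 in WT oocytes, each above the mean of every keratin. Krtcap2, for a subunit of the oligosaccharyltransferase complex of the endoplasmic reticulum, had means of 11.2 and 7.98 (log2 difference 0.48). Krtdap, for a protein of differentiating keratinocytes, had means of 0.0712 and 0.0352. All 3 were under 2-fold with 0.1 added to each mean.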
